A study of Mus musculus with 16 samples.

Results

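Proteins are tagged with ubiquitin by activating enzymes (E1), conjugating enzymes (E2) and ligases (E3), and deubiquitinases remove the tag. The genes of these enzymes were followed through a sequencing study of mouse macrophages. They were chosen by symbol alone, as every gene of the deposited table whose symbol opens with Usp, Rnf, Trim, Fbx, Ube, Otud, Ubr, Herc, Cul, Klhl, March, Nedd4, Hectd, Uba, Peli or Cbl, with a digit after the stem in the numbered families. The rule found 138 gene identifiers under 132 symbols, of 4943 identifiers in the table, and they held 220 of its 7069 peaks.

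Thioglycolate-elicited peritoneal macrophages of wild-type (WT) mice and of mice without the adaptor protein ADAP (Adap-/-, gene Fyb1) were cultured unstimulated (mock) or with lipopolysaccharide (LPS), a component of the bacterial outer membrane, at 1 ug/ml for 6 h. Their RNA was cut into short fragments, of which one portion was sequenced as the input and the other after capture with an antibody to N6-methyladenosine (m6A), the immunoprecipitate (IP). WT mock, WT LPS, Adap-/- mock and Adap-/- LPS each had 2 replicates, and each replicate had an input and an IP library, 16 libraries in all. The labels gave no age, sex or strain, did not say how the gene was disrupted, and did not say whether replicates came from separate animals. The input libraries held 2274830 and 2190219 counted reads in WT mock, 4325961 and 3595589 in WT LPS, 2121313 and 2333347 in Adap-/- mock and 4221505 and 3432746 in Adap-/- LPS. The IP libraries held 6519310 and 9672269 in WT mock, 6517124 and 13731908 in WT LPS, 12784362 and 5728590 in Adap-/- mock and 19030373 and 11085317 in Adap-/- LPS.

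As background, an E1 loads ubiquitin onto an E2, and an E3 such as a RING, HECT or cullin-based ligase passes it to a chosen protein. Chains of one linkage send proteins to the proteasome, while other linkages build the signalling platforms that Toll-like receptors use to reach NF-kB, and deubiquitinases take both apart. In macrophages exposed to LPS, many TRIM-family ligases and the enzymes of the ubiquitin-like modifier ISG15 are known as interferon-induced genes.

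The unit of the table was the count of reads on a merged peak, and a gene without a peak was not in it. A gene's input value was the sum of its input counts over all its peaks, written below as CPM, counts relative to the scaled size of the library, and its log2 fold change was fitted by edgeR over all 4742 genes that passed a filter on low counts. For m6A, the log2 ratio of IP to input was taken for each peak, and its change between groups was tested in a fit of all 16 libraries over 7058 peaks. A gene or peak was called where its adjusted p lay under 0.05, whatever the size of the change. Every group had 2 replicates, so in the main fits the spread behind each p was estimated jointly over all groups. That spread is the one between these samples, and each of the comparisons shared libraries with others. In bulk RNA, fewer cells of a type and less RNA per cell cannot be told apart, and a change of m6A shared by all peaks could not be seen after scaling.

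An IP library in each mock group stood apart from its replicate. Genes raised more than 8-fold by LPS in the input of both genotypes, 202 in number, had 446 peaks of their own, which took 15% and 2.01% of the reads of the WT mock IP libraries 1 and 2 and 2.72% and 13.7% of those of the Adap-/- mock IP libraries 1 and 2. The mock inputs were at 1.94% and 2.51% in WT and 2.76% and 2.94% in Adap-/-. The LPS libraries were at 22.7% and 21.3% (WT IP), 19.7% and 21.0% (Adap-/- IP), 42.2% and 41.4% (WT input) and 40.1% and 41.5% (Adap-/- input). WT mock IP 1 and Adap-/- mock IP 2 thus lay between their replicates and the LPS IP libraries, while the input libraries of each group lay close together. The cause was not tested, and some IP results below are also given without these libraries.

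**Figure D1:**
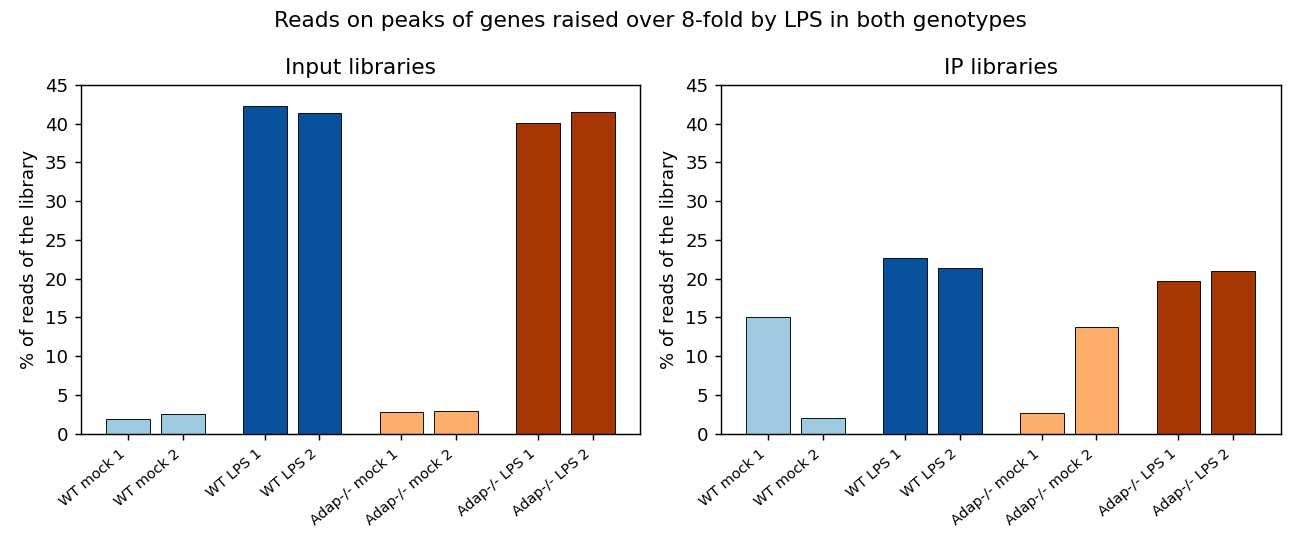
Bars give the percent of each library's counted reads on the 446 peaks of 202 genes raised more than 8-fold by LPS in both genotypes, for input (left) and IP libraries (right). WT mock IP 1 (15%) and Adap-/- mock IP 2 (13.7%) stand apart from the other mock IP libraries (2.01% and 2.72%).

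Fyb1 (ENSMUSG00000022148, chromosome 15, 6552334 to 6692785), the targeted gene, read 243 and 257 CPM in WT mock and 349 and 377 in WT LPS. It read 46.7 and 36.9 CPM in Adap-/- mock and 41.5 and 35.7 in Adap-/- LPS. All 4 Adap-/- libraries were below all 4 WT libraries. Adap-/- minus WT, the log2 fold change was -2.58 (SE 0.13, adjusted p 8.51e-09) in mock and -3.22 (SE 0.13, adjusted p 5.63e-10) after LPS. Its values are sums over 4 peaks.

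The labelled cell type was checked against marker genes. Of 9 macrophage markers 7 were in the table (Adgre1, Cd14, Cd68, Csf1r, Fcgr1, Lyz2 and Mertk), and Itgam and Mrc1 had no peak. Lyz2 had the most counts of the 7 in all 4 mock inputs and Cd68 in all 4 LPS inputs. With LPS 3 of the 7 were called higher and 1 lower in WT and 4 and 1 in Adap-/-, with changes in WT of 2.08 (adjusted p 1.69e-09) for Cd14, 3.20 (adjusted p 5.58e-10) for Fcgr1, 1.60 (adjusted p 8.04e-10) for Mertk and -0.68 (adjusted p 2.44e-04) for Lyz2. Between genotypes after LPS 1 was higher, Cd14 (0.49, adjusted p 0.0193), and 2 lower, Fcgr1 (-1.28, adjusted p 2.04e-04) and Mertk (-0.32, adjusted p 0.0371). Cd14 was not called without Adap-/- LPS 2 or WT LPS 2 (adjusted p 0.236 and 0.160), and Mertk not without Adap-/- LPS 1, Adap-/- LPS 2 or WT LPS 2 (adjusted p 0.165, 0.128 and 0.288) or by DESeq2 (adjusted p 0.106). These markers were singled out, chosen after their values were seen. Of 6 neutrophil markers only Csf3r was in the table, which macrophages also express, higher with LPS by 1.37 (adjusted p 1.82e-08) in WT and 1.21 (adjusted p 7.43e-08) in Adap-/-. None of the 4 B cell, 4 T cell, 4 eosinophil, 4 mast cell or 5 fibroblast and mesothelium markers was in the table.

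By role, the members were 65 RING ligases (Rnf, Trim, March, Peli and Cbl genes), 33 genes of cullin complexes (Cul, Fbx and Klhl), 28 genes under deubiquitinase stems (Usp and Otud), 5 E2, 3 HECT ligases, 2 E1 and 2 N-degron ligases (Ubr2 and Ubr4). Usp6nl carries the Usp stem but is a GTPase-activating protein. The table wrote 15 further symbols of these families in capitals, such as UBA7, UBE2M and HERC1, which the rule did not match. It also gave the symbol Trim30a to 4 identifiers on chromosome 7, which are named here by their descriptions as Trim30a, Trim30b, Trim30c and Trim12c, and Trim34a to 2, named Trim34a and Trim34b. These genes are near-identical copies in part, so reads of one may have been counted on another.

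Of the members 93 (67.4%) had only 1 peak, against 62.8% of all genes in the table. Rnf213 had 11 peaks, Trim56 7, and Fbxo30 and Klhl38 5 each. A peak was shared with another gene in 25 members, and 21 had shared peaks only, so their values are uncertain. Member peaks lay at stop codons in 38.2% (other peaks 32.6%), in coding sequence in 36.4% (31.6%), in 3′ untranslated regions in 12.7% (16.1%) and at start codons in 10.5% (13.7%).

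Of the 138 members 133 passed the filter on low counts. Usp18, the ISG15 protease, and Rnf139 with Gm49356, which share a peak, had 0 reads in all 16 libraries although their peaks spanned 20235 and 9604 bases. A count of 0 on a listed peak is a property of the table, and no level of these genes could be read from it. The other untested members, Fbxw4 and Trim34b, had at most 4 reads in an input library.

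Levels between genes were compared per kilobase (kb) of merged peak length. In WT mock the members with the most CPM per kb were Rnf13 (1746), Rnf128 (1422), Rnf149 (852), Rnf10 (821) and Otud5 (698). In WT LPS they were Trim30a (4248), Herc6 (2492), Rnf213 (2222), Rnf19b (1732) and Usp25 (1399). The median member was at 112 CPM per kb in WT mock, 142 in WT LPS, 123 in Adap-/- mock and 140.2 in Adap-/- LPS.

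How many of these genes changed with LPS was asked first in WT. There 83 of 133 members were called (62.4%; 59.2% of all genes tested), 54 higher (40.6%; 30.2%) and 29 lower (21.8%; 28.9%). In Adap-/- 72 were called (54.1%; 54.5% of all genes), 46 higher (34.6%; 28.5%) and 26 lower (19.5%; 26.0%). The total shares were near those of all genes, so the number of changed members is not a result about them, while the share called higher was above that of all genes and the share called lower below it. In every fit without 1 library, the number called lower dropped by more than the number called higher. The median log2 fold change of the members was 0.15 in WT and 0.18 in Adap-/-, and that of all genes tested was -0.03 in both. Upper-quartile scaling shifted the median of all genes by -0.29 in WT and -0.28 in Adap-/- and turned the members' medians to -0.14 and -0.10. It called 41 members higher and 44 lower in WT (30.8% and 33.1%; all genes 23.3% and 41.7%) and 38 and 39 in Adap-/- (28.6% and 29.3%; 21.2% and 39.6%). DESeq2 called 52 and 17 (39.1% and 12.8%; 28.0% and 23.6%), and 44 and 14 (33.1% and 10.5%; 25.1% and 20.5%). The members' median was above that of all genes by 0.18 in WT and 0.21 in Adap-/-, a gap that scaling cannot move. Where every input library had to hold 10 counts, the gap was 0.10 in WT and 0.16 in Adap-/-.

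Of the members tested, 44 (33.1%; 25.8% of all genes tested) were called higher in both genotypes and 22 (16.5%; 22.3%) lower in both, and none was called in opposite directions (4 of all genes). These comparisons share no library, but they do share a fit. Called and more than 2-fold higher were 31 (23.3%; 18.5% of all genes) members in WT and 30 (22.6%; 16.7%) in Adap-/-, and more than 2-fold lower 12 (9.02%; 14.8%) and 12 (9.02%; 12.3%), counts that include Trim30b and Rnf150, which had almost no reads in a group. Another 17 (12.8%; 10.9% of all genes) members were called in WT alone and 6 (4.51%; 6.28%) in Adap-/- alone, shares near the background that are not a result about the members, and none of these 23 was called in the test of the difference between the LPS responses. By role, the called members in WT were 29 RING ligases higher and 14 lower of 62 tested, 12 Usp and Otud genes higher and 4 lower of 27, 9 cullin-complex genes higher and 8 lower of 32, 3 of 5 E2 higher, Herc6 higher and Herc2 lower, and Ubr2 and Ubr4 lower, where 30.2% of all genes were higher and 28.9% lower. Upper-quartile scaling changed the split to 26 and 19 for RING ligases, 8 and 7 for Usp and Otud genes and 4 and 14 for cullin-complex genes (all genes 23.3% and 41.7%). In Adap-/- the splits were 26 and 11 for RING ligases, 9 and 3 for Usp and Otud genes and 8 and 9 for cullin-complex genes (all genes 28.5% and 26.0%), and 25 and 15, 7 and 7, and 3 and 13 with upper-quartile scaling (all genes 21.2% and 39.6%).

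**Figure D2:**
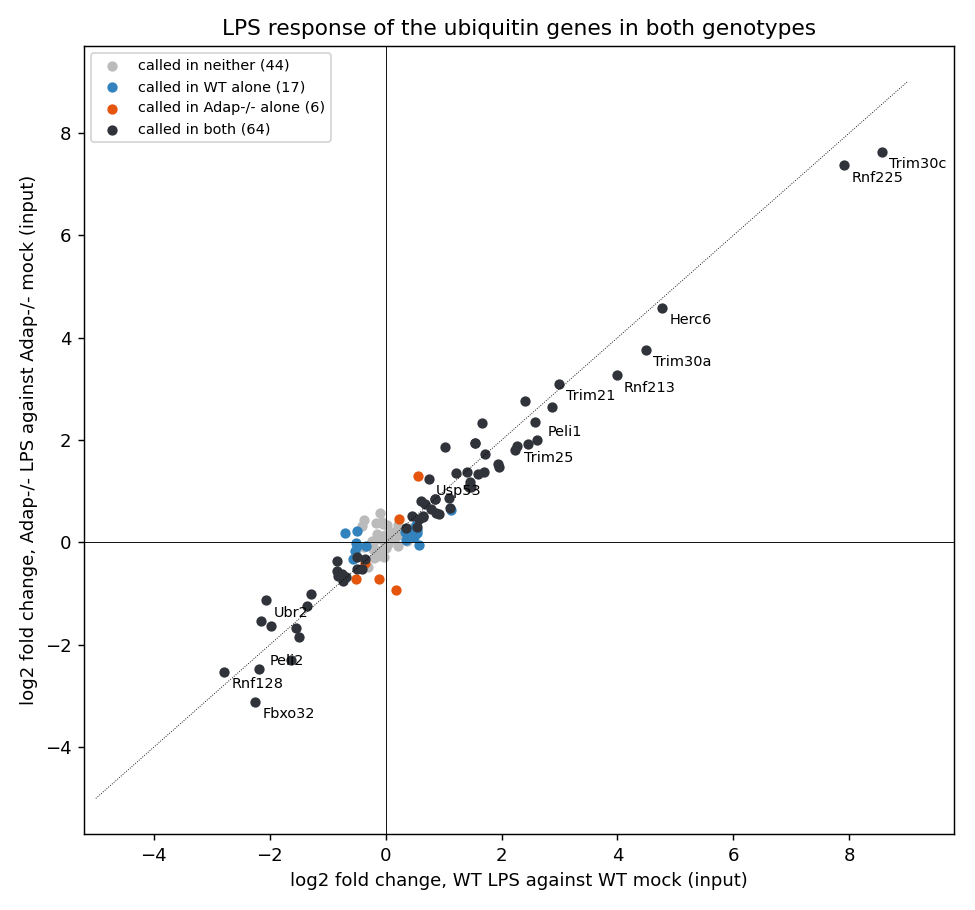
Each point is a member, placed by its fitted log2 fold change of input after LPS in WT (x axis) and in Adap-/- (y axis) and coloured by the genotypes in which it was called; the dotted line marks equal changes. Of 131 members shown, 64 were called in both genotypes, and Trim30b and Rnf150 were left out because a group had almost no reads.

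Members that rose together were looked at for a shared promoter motif. Of the members, 107 matched a RefSeq promoter by symbol (build GRCm38.p6), with 137 promoters among them. Each was searched over its full stored length, which was longer than the stretches printed below. Those stretches run from 90 bases before to 30 bases after the annotated start. The letters GAAANNGAAA, an arrangement found in interferon-stimulated response elements, were searched on both strands (TTTCNNTTTC on the reverse). They occurred in 1131 of all 32851 promoters searched at full length (3.44%) and in 15 of the 137 member promoters (10.9%). They were in 6 of 32 promoters of members more than 2-fold higher in both genotypes (18.8%). Of those more than 2-fold lower 0 of 9 held them, and of those called in neither 4 of 45 (8.89%). The 6 promoters belonged to Trim12a, Trim21, Trim26, Trim30a (2 entries) and Trim34a. Trim12a, Trim30a and Trim34a lie in the same cluster of related genes on chromosome 7, so these promoters are not independent occurrences. The κB consensus was held by 5.89% of all promoters and 5.11% of member promoters, with 1 of 32 in the raised group and 2 of 9 in the lowered group. The promoters below show how the letters sit around the start in raised members of chromosome 7 and in Isg15, the modifier gene, with Trim30c and Herc6 as raised members without them. They were chosen after values and matches were seen, and a match describes letters and no site in use. Capitals mark the matches, and overlapping matches run together.
Isg15 (chr4:156200789-156200908, reverse strand): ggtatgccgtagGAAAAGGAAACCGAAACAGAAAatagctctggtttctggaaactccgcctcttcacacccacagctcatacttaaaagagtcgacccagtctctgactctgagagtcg
Trim21 (chr7:102565453-102565572, reverse strand): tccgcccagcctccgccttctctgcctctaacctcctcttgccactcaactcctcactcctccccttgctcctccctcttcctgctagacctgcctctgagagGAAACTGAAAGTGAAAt
Trim12a (chr7:104315466-104315585, reverse strand): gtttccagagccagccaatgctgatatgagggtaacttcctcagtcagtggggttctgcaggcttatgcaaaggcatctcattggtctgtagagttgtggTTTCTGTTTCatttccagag
Trim30a, entry 1 (chr7:104446096-104446215, reverse strand): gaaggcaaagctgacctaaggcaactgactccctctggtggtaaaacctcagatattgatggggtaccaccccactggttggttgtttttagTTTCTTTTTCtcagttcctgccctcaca
Trim30a, entry 2 (chr7:104465164-104465283, reverse strand): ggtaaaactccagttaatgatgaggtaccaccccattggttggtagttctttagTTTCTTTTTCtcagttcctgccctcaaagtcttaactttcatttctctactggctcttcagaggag
Trim30c (chr7:104400749-104400868, reverse strand): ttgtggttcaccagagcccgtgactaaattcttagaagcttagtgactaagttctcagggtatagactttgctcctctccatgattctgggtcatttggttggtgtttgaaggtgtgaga
Herc6 (chr6:57580902-57581021, forward strand): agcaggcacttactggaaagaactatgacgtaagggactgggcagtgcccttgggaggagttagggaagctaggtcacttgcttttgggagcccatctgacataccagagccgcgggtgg
Within the stretches shown, Isg15 held 3 overlapping matches, the first at -78 from its start, and Trim21 held 2, the first at +14. Trim12a held 1 at +11, and the Trim30a entries held 1 each at +3 and -36. The matches of Trim21, Trim12a and Trim30a entry 1 thus began inside the annotated transcript, and those of Isg15 and Trim30a entry 2 ahead of it.

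The ISG15 system came first because its E1, E2, ligases and protease act on a single modifier. Isg15 itself (ENSMUSG00000035692, chromosome 4, 156283912 to 156285253), the ubiquitin-like protein, is not a member by the rule and read 54.5 and 56.3 CPM in WT mock, 7444 and 6968 in WT LPS, 63.5 and 60.2 in Adap-/- mock and 4229 and 4355 in Adap-/- LPS. All LPS libraries were above all mock libraries, and both Adap-/- LPS libraries were below both WT LPS libraries. LPS raised it by 7.02 (SE 0.14, adjusted p 7.45e-15) on the log2 scale in WT and 6.12 (SE 0.14, adjusted p 2.42e-14) in Adap-/-. Uba7, its E1, was written in capitals in the table and had 0 reads in all 4 mock inputs, 8 and 5 reads in WT LPS and 13 and 7 in Adap-/- LPS, too few to be tested. Ube2l6, its E2, had no peak in the table.

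Herc6 (ENSMUSG00000029798, chromosome 6, 57557985 to 57641617), the main ISG15 ligase of mice, read 24.3 and 35 CPM in WT mock and 816 and 804 in WT LPS. It read 24.7 and 33.7 CPM in Adap-/- mock and 689.6 and 722 in Adap-/- LPS. In both genotypes the LPS libraries were more than 20 times above the mock libraries. Its log2 fold change was 4.77 (SE 0.15, adjusted p 2.16e-13) in WT and 4.59 (SE 0.15, adjusted p 4.32e-13) in Adap-/-, and the peaks of this gene were also assigned to an overlapping transcript, ENSMUSG00000108112. Trim25 (ENSMUSG00000000275, chromosome 11, 88890202 to 88911119), which adds ubiquitin to the RNA sensor RIG-I and also ISG15 to other proteins, read 65.0 and 59.3 CPM in WT mock, 283 and 315 in WT LPS, 65.3 and 69.6 in Adap-/- mock and 239.7 and 261 in Adap-/- LPS. Its libraries separated by treatment in both genotypes, with a log2 fold change of 2.26 (SE 0.11, adjusted p 4.00e-11) and 1.89 (SE 0.11, adjusted p 4.17e-10). Of the 6 genes listed for this system 5 were in the table and 3 could be tested, all called higher in both genotypes, with a median of 4.77 in WT and 4.59 in Adap-/- against -0.03 for all genes.

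The TRIM genes of chromosome 7 held the largest rise of any tested member. Trim30c (ENSMUSG00000078616, chromosome 7, 104031272 to 104050044), a copy of Trim30a, had 13 and 14 input reads in WT mock (3.32 and 3.77 CPM) and 4818 and 3316 in WT LPS (1497 and 1199 CPM). In Adap-/- it had 24 and 28 reads in mock (6.30 and 6.79 CPM) and 4451 and 3726 after LPS (1255 and 1358 CPM). Both LPS groups were far above both mock groups, and the log2 fold change was 8.56 (SE 0.18, adjusted p 7.45e-15) in WT and 7.63 (SE 0.17, adjusted p 2.42e-14) in Adap-/-. The small mock counts make the size of these changes imprecise.

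Trim30a (ENSMUSG00000030921, chromosome 7, 104058232 to 104114400), a brake on Toll-like receptor signalling that acts on the TAB2 and TAB3 adaptors, read 20.7 and 26.4 CPM in WT mock, 526 and 536 in WT LPS, 33.3 and 36.4 in Adap-/- mock and 474 and 477 in Adap-/- LPS. Every LPS library was above 470 CPM and every mock library below 40. The log2 fold change was 4.49 (SE 0.13, adjusted p 4.85e-14) in WT and 3.77 (SE 0.12, adjusted p 2.38e-13) in Adap-/-. Its neighbour Trim30b (ENSMUSG00000052749, chromosome 7, 104005520 to 104019073) had 0 and 1 reads in WT mock, 38 and 38 in WT LPS, 0 and 1 in Adap-/- mock and 37 and 21 in Adap-/- LPS, so it was seen after LPS and hardly at all before, and no fold is given.

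Trim12a (ENSMUSG00000066258, chromosome 7, 103949104 to 103964670), a mouse relative of the retrovirus restriction factor TRIM5, read 24.3 and 26.4 CPM in WT mock, 214 and 155 in WT LPS, 30.7 and 26.9 in Adap-/- mock and 177 and 183 in Adap-/- LPS. Trim34a (ENSMUSG00000056144, chromosome 7, 103893666 to 103911441) of the same cluster read 12.5 and 14.3 CPM in WT mock, 84.2 and 75.2 in WT LPS, 14.4 and 15.5 in Adap-/- mock and 75.3 and 78.7 in Adap-/- LPS. Both separated LPS from mock in each genotype. Trim12a rose by 2.87 (SE 0.16, adjusted p 1.57e-10) in WT and 2.64 (SE 0.16, adjusted p 3.94e-10) in Adap-/-, and Trim34a by 2.57 (SE 0.16, adjusted p 4.43e-10) and 2.36 (SE 0.15, adjusted p 1.12e-09). Trim12c, chosen after its values were seen because it completes the cluster, had 21 and 18 reads in WT mock, 34 and 33 in WT LPS, 27 and 34 in Adap-/- mock and 47 and 29 in Adap-/- LPS. It was called in WT alone, at 1.13 (SE 0.31, adjusted p 0.00547) against 0.64 (SE 0.28, adjusted p 0.0688) in Adap-/-, and the difference of -0.48 was not called (adjusted p 0.715).

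Trim21 (ENSMUSG00000030966, chromosome 7, 102207128 to 102214693), which binds antibody-coated pathogens inside cells and marks them with ubiquitin, lies near this cluster on chromosome 7. It read 45 and 62.0 CPM in WT mock, 440.2 and 408 in WT LPS, 46.4 and 43.2 in Adap-/- mock and 359 and 407 in Adap-/- LPS. The groups did not overlap between LPS and mock, whereas WT and Adap-/- libraries of one treatment lay close. The log2 fold change was 2.99 (SE 0.14, adjusted p 1.22e-11) in WT and 3.09 (SE 0.14, adjusted p 1.19e-11) in Adap-/-.

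Rnf213 (ENSMUSG00000070327, chromosome 11, 119283926 to 119378241), a giant RING ligase with an ATPase domain that can mark the LPS coat of bacteria with ubiquitin, was the member with the most peaks. It read 438 and 405 CPM in WT mock and 6245 and 7118 in WT LPS. It read 745 and 734 CPM in Adap-/- mock and 6782 and 7416 in Adap-/- LPS. The LPS libraries of both genotypes overlapped, while the Adap-/- mock libraries were above the WT mock libraries. The rise was 3.99 (SE 0.13, adjusted p 2.54e-13) in WT and 3.26 (SE 0.13, adjusted p 2.03e-12) in Adap-/-.

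Rnf225 (ENSMUSG00000033967, chromosome 7, 12661343 to 12664999), a RING gene of little known function, had 5 and 4 input reads in WT mock and 945 and 807 in WT LPS. It had 5 and 11 in Adap-/- mock and 1096 and 1015 in Adap-/- LPS. It was thus near the floor in mock and at 294 and 292 CPM in WT LPS and 309 and 369.9 CPM in Adap-/- LPS. The log2 fold change was 7.91 (SE 0.22, adjusted p 5.08e-14) in WT and 7.37 (SE 0.20, adjusted p 7.77e-14) in Adap-/-, again against small mock counts. Rnf24, a membrane RING protein, went from 11 and 7 to 48 and 28 reads in WT and from 14 and 5 to 47 and 56 in Adap-/- (2.40, SE 0.46, adjusted p 2.71e-04, and 2.77, SE 0.43, adjusted p 4.24e-05). Rnf180 went from 11 and 9 to 29 and 21 in WT and from 11 and 10 to 62 and 24 in Adap-/- (1.65, SE 0.44, adjusted p 0.00433, and 2.33, SE 0.40, adjusted p 1.28e-04). Both separated mock from LPS at low counts, and the Adap-/- LPS replicates of Rnf180 lay far apart. In Adap-/- Rnf24 was at 3.73 without Adap-/- mock 1 and 2.15 without Adap-/- mock 2, Rnf180 at 1.71 without Adap-/- LPS 1, and Rnf225 at 7.96 without Adap-/- mock 2.

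Trim56 (ENSMUSG00000043279, chromosome 5, 137134498 to 137145061), a ligase of the DNA-sensing pathway of cGAS and STING, read 62.1 and 65.2 CPM in WT mock, 336 and 364 in WT LPS, 95.0 and 107 in Adap-/- mock and 345 and 419.9 in Adap-/- LPS. Rnf135 (ENSMUSG00000020707, chromosome 11, 80074677 to 80090583), the RIG-I ligase Riplet, read 14.1 and 15.4 CPM in WT mock, 53.7 and 61.1 in WT LPS, 12.9 and 11.4 in Adap-/- mock and 37.2 and 29.9 in Adap-/- LPS. In both genes every LPS library was above every mock library of its genotype. Trim56 rose by 2.46 (SE 0.12, adjusted p 3.63e-11) in WT and 1.92 (SE 0.12, adjusted p 5.45e-10) in Adap-/-, and Rnf135 by 1.96 (SE 0.18, adjusted p 1.05e-07) and 1.48 (SE 0.20, adjusted p 8.14e-06). Rnf19b (ENSMUSG00000028793, chromosome 4, 128952064 to 128978319), a RING-between-RING ligase named for its part in natural killer cell killing, read 179 and 228 CPM in WT mock, 561 and 564 in WT LPS, 187 and 204 in Adap-/- mock and 429.5 and 397 in Adap-/- LPS. Marchf1 (ENSMUSG00000036469, chromosome 8, 66070738 to 66924289), a membrane ligase that removes MHC class II and CD86 from the cell surface, read 37.8 and 33.9 CPM in WT mock, 94.7 and 99.4 in WT LPS, 57.5 and 67.9 in Adap-/- mock and 131 and 134 in Adap-/- LPS. LPS and mock did not overlap in either gene, and the rises were 1.47 (adjusted p 1.08e-08) and 1.08 (adjusted p 5.08e-07) for Rnf19b and 1.43 (adjusted p 7.39e-08) and 1.08 (adjusted p 7.99e-07) for Marchf1.

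**Figure D3:**
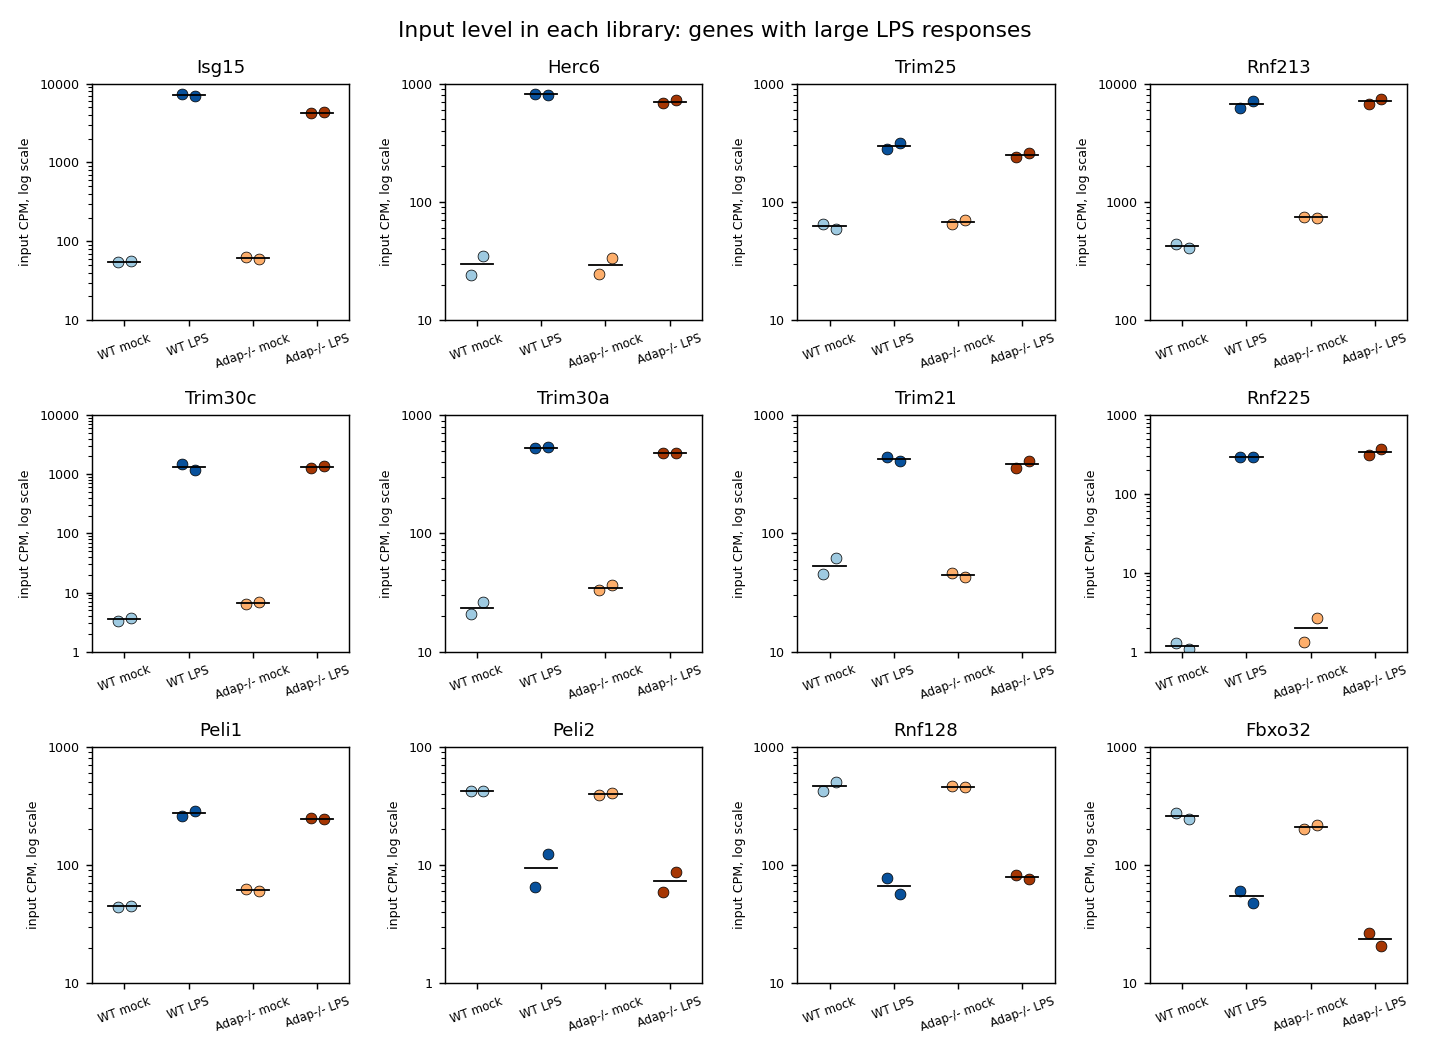
Input level of 12 genes in each library (y axis, CPM, log scale) by group (x axis); points are the replicates and lines their means. The LPS libraries of the 9 raised genes lie above their mock libraries, and those of Peli2, Rnf128 and Fbxo32 below.

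Among ligases and deubiquitinases of Toll-like receptor and NF-kB signalling, the Pellino genes moved apart. Peli1 (ENSMUSG00000020134, chromosome 11, 21085469 to 21100323), which builds chains on the IRAK kinases, read 44.0 and 45.3 CPM in WT mock, 258 and 288 in WT LPS, 62.7 and 60.4 in Adap-/- mock and 251 and 243 in Adap-/- LPS. Peli2 (ENSMUSG00000021846, chromosome 14, 48358280 to 48498345), its relative, read 41.9 and 42.3 CPM in WT mock, 6.52 and 12.3 in WT LPS, 39.4 and 40.3 in Adap-/- mock and 5.92 and 8.75 in Adap-/- LPS. Peli1 was higher in every LPS library and Peli2 lower in every LPS library than in the mock libraries. Peli1 changed by 2.61 (SE 0.11, adjusted p 6.75e-12) in WT and 2.0 (SE 0.11, adjusted p 1.33e-10) in Adap-/-, and Peli2 by -2.19 (SE 0.24, adjusted p 8.46e-07) and -2.46 (SE 0.25, adjusted p 3.56e-07).

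Usp25 (ENSMUSG00000022867, chromosome 16, 76810594 to 76913668), which trims chains from TRAF adaptors, read 82.1 and 96.4 CPM in WT mock, 363 and 477 in WT LPS, 102 and 104 in Adap-/- mock and 340.4 and 380.1 in Adap-/- LPS. Its LPS libraries were all above its mock libraries, with a log2 fold change of 2.23 (SE 0.13, adjusted p 4.22e-10) and 1.81 (SE 0.13, adjusted p 5.60e-09). Otud7b (ENSMUSG00000038495), a deubiquitinase that restrains the non-canonical NF-kB route, read 30.7 and 28.3 CPM in WT mock, 29.5 and 28.2 in WT LPS, 29.1 and 29.8 in Adap-/- mock and 24.0 and 24.4 in Adap-/- LPS. Cblb (ENSMUSG00000022637), a ligase that damps receptor signalling, read 34.8 and 37.4 CPM in WT mock, 29.8 and 49.2 in WT LPS, 31.5 and 32.8 in Adap-/- mock and 38.9 and 34.6 in Adap-/- LPS. Neither separated LPS from mock in WT, and neither was called in a comparison by the main fit (log2 fold changes of -0.03, adjusted p 0.890, and 0.12, adjusted p 0.643 in WT). Cbl (ENSMUSG00000034342), its relative, read 87.5 and 69.5 CPM in WT mock and 66.5 and 68.7 in WT LPS, with the LPS libraries just below mock, and was not called (-0.22, adjusted p 0.166). With upper-quartile scaling Cbl was called lower in WT (adjusted p 0.00299) and in Adap-/- (adjusted p 0.0208), and Otud7b in Adap-/- (adjusted p 0.00877).

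Of 21 further genes listed for NF-kB ubiquitin editing 14 were in the table. In WT 10 of the 14 were called higher and 1 lower (all genes 30.2% and 28.9%), and their median change was 1.05 on the log2 scale. In Adap-/- 9 were higher and 1 lower (median 0.98; all genes 28.5% and 26.0%), and all genes tested had a median of -0.03. Tnfaip3, the editing enzyme A20, read 463 and 415 CPM in WT mock, 3429 and 3638 in WT LPS, 568 and 619 in Adap-/- mock and 4030.5 and 4500.4 in Adap-/- LPS, and its LPS libraries stood far above mock (3.01, SE 0.12, adjusted p 2.78e-12, and 2.84, SE 0.12, adjusted p 5.67e-12). Birc3, the ligase cIAP2, read 206 and 179 CPM in WT mock, 614 and 596 in WT LPS, 305 and 327 in Adap-/- mock and 713 and 751 in Adap-/- LPS and also separated (1.66, adjusted p 5.06e-10, and 1.21, adjusted p 2.04e-08). Traf6, a RING ligase central to the pathway, read 57.8 and 56.8 CPM in WT mock, 60.0 and 70.9 in WT LPS, 77.7 and 64.8 in Adap-/- mock and 70.5 and 88.9 in Adap-/- LPS, and was not called (0.19, adjusted p 0.298, and 0.16, adjusted p 0.372). Cyld, which removes linear and K63 chains, read 8.70 and 11.9 CPM in WT mock and 18 and 17.4 in WT LPS, a rise of 0.79 (adjusted p 0.0132) that missed the threshold without WT LPS 1 or WT mock 1 (adjusted p 0.0636 and 0.131) and with upper-quartile scaling (adjusted p 0.0930), and it was not called in Adap-/- (0.03, adjusted p 0.938). The difference between the genotypes was not called for Cyld (adjusted p 0.378). Rnf31 and Rbck1 of the linear chain complex, and Ube2n, Nedd4, Nedd4l and Ube3a, had no peak in the table.

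Among members that fell, Rnf128 (ENSMUSG00000031438, chromosome X, 138511369 to 138573894), the membrane ligase GRAIL, was one of the most abundant in mock. It read 424 and 500.0 CPM in WT mock, 77.0 and 56.4 in WT LPS, 464 and 451 in Adap-/- mock and 82.1 and 76.5 in Adap-/- LPS. No LPS library came within reach of a mock library, and the log2 fold change was -2.78 (SE 0.14, adjusted p 2.82e-11) in WT and -2.53 (SE 0.13, adjusted p 8.25e-11) in Adap-/-. Fbxo32 (ENSMUSG00000022358, chromosome 15, 58039275 to 58078328), the F-box protein atrogin-1 known from muscle wasting, read 275 and 244 CPM in WT mock, 60.3 and 48.1 in WT LPS, 201 and 217 in Adap-/- mock and 26.8 and 20.8 in Adap-/- LPS. All LPS libraries were below all mock libraries, and the Adap-/- LPS libraries were the lowest. It fell to a log2 fold change of -2.25 (SE 0.14, adjusted p 4.43e-10) in WT and -3.12 (SE 0.15, adjusted p 3.25e-11) in Adap-/-, and a peak of it was also assigned to ENSMUSG00000086801. Rnf150, a membrane RING gene, had 31 and 33 reads in WT mock, 1 and 1 in WT LPS, 29 and 31 in Adap-/- mock and 6 and 1 in Adap-/- LPS. It nearly vanished after LPS, and only the Adap-/- fold is given (-2.73, SE 0.51, adjusted p 2.58e-04), which was -4.25 without Adap-/- LPS 1 and -2.14 without Adap-/- LPS 2.

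Most other members with large falls had low counts. Ubr2 (ENSMUSG00000023977), a ligase that reads the first residue of proteins, read 16.9 and 14.0 CPM in WT mock, 3.73 and 3.61 in WT LPS, 21.0 and 15.5 in Adap-/- mock and 7.33 and 9.48 in Adap-/- LPS, and its large relative Ubr4 (ENSMUSG00000066036), whose only peak is shared with Emc1, read 19.4 and 15.1 CPM in WT mock, 6.52 and 7.59 in WT LPS, 14.7 and 12.9 in Adap-/- mock and 7.61 and 5.83 in Adap-/- LPS. Both were lower in every LPS library than in every mock library. Ubr2 changed by -2.06 (adjusted p 5.92e-05) and -1.13 (adjusted p 0.00255). Ubr4 changed by -1.29 (adjusted p 9.91e-04) and -1.01 (adjusted p 0.00771), the latter not called without Adap-/- LPS 2 (adjusted p 0.0569). Klhl9 (ENSMUSG00000070923), a cullin-3 adaptor used in mitosis, fell from 255 and 264 to 102 and 102 CPM in WT and from 238 and 229.5 to 100.4 and 96.6 in Adap-/- (-1.35, adjusted p 6.22e-09, and -1.24, adjusted p 1.95e-08).

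Marchf9 (ENSMUSG00000040502), a membrane ligase, read 24.8 and 24.0 CPM in WT mock and 6.52 and 5.78 in WT LPS, and 18.9 and 17.7 CPM in Adap-/- mock and 6.49 and 5.10 in Adap-/- LPS (-1.98, adjusted p 5.59e-06, and -1.64, adjusted p 6.40e-05). Rnf157 (ENSMUSG00000052949), a RING ligase studied in neurons, read 14.6 and 11 CPM in WT mock and 3.42 and 5.42 in WT LPS, and 19.4 and 16.5 CPM in Adap-/- mock and 4.79 and 6.56 in Adap-/- LPS (-1.55, adjusted p 0.00104, and -1.68, adjusted p 2.32e-04). In both genes mock and LPS did not overlap. Trim29 (ENSMUSG00000032013), a TRIM protein that damps antiviral signalling in alveolar macrophages, read 10.2 and 4.85 CPM in WT mock and 1.24 and 2.17 in WT LPS, and 6.82 and 6.31 CPM in Adap-/- mock and 1.13 and 3.64 in Adap-/- LPS. Its changes of -2.16 (adjusted p 0.00390) and -1.53 (adjusted p 0.0247) rested on single libraries, since WT missed the threshold without WT LPS 1 or WT mock 1 (adjusted p 0.0529 and 0.0587) and Adap-/- without Adap-/- LPS 1, Adap-/- mock 1 or Adap-/- mock 2 (adjusted p 0.273, 0.0775 and 0.0557). Trim29 was at -1.54 without WT mock 1, -0.84 without Adap-/- LPS 1 and -2.5 without Adap-/- LPS 2, and DESeq2 did not call it in Adap-/- (adjusted p 0.0534). Fbxo21 (ENSMUSG00000032898), an F-box protein, read 9.72 and 7.0 CPM in WT mock and 1.86 and 3.61 in WT LPS, and 10.5 and 7.04 CPM in Adap-/- mock and 1.97 and 1.46 in Adap-/- LPS. It changed by -1.63 (adjusted p 0.00461), not called without WT LPS 1 (adjusted p 0.0753), and by -2.30 (adjusted p 5.89e-04). Fbxl17, which watches over dimers of BTB proteins, had 11 and 18 reads in WT mock, 6 and 2 in WT LPS, 16 and 12 in Adap-/- mock and 3 and 3 in Adap-/- LPS. Its changes of -1.49 (adjusted p 0.0424) and -1.85 (adjusted p 0.0226) were lost in WT without WT LPS 2 or WT mock 2 (adjusted p 0.252 and 0.236) and in Adap-/- without Adap-/- LPS 1, Adap-/- LPS 2 or Adap-/- mock 1 (adjusted p 0.136, 0.0661 and 0.119), and Fbxl17 was at -2.34 in WT without WT LPS 1. DESeq2 called Fbxl17 in neither genotype (adjusted p 0.130 and 0.0771), and a replicate block lost it in WT (adjusted p 0.0521).

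Among the enzymes at the ends of the chain, Uba1 (ENSMUSG00000001924), the main ubiquitin E1, had 29 and 28 reads in WT mock, 26 and 16 in WT LPS, 30 and 26 in Adap-/- mock and 27 and 38 in Adap-/- LPS. Its groups overlapped and it was not called (-0.10, adjusted p 0.846, and 0.57, adjusted p 0.178). Usp12 (ENSMUSG00000029640), a deubiquitinase activated by WD-repeat partners, read 57.5 and 52.0 CPM in WT mock, 209 and 211 in WT LPS, 54.8 and 58.2 in Adap-/- mock and 158 and 167 in Adap-/- LPS. Usp15 (ENSMUSG00000020124), which acts on RIG-I and TGF-beta signalling, read 54.7 and 57.1 CPM in WT mock, 116 and 127 in WT LPS, 56.9 and 59.7 in Adap-/- mock and 94.5 and 91.1 in Adap-/- LPS. Both were higher in every LPS library (1.94, adjusted p 2.58e-10, and 1.52, adjusted p 6.24e-09 for Usp12, 1.12, adjusted p 3.31e-07, and 0.67, adjusted p 1.12e-04 for Usp15). Cbll1 (ENSMUSG00000020659), the RING protein Hakai that is also a part of the m6A writer complex, read 43.2 and 33.1 CPM in WT mock, 37.9 and 37.6 in WT LPS, 43.6 and 42.5 in Adap-/- mock and 46.5 and 34.6 in Adap-/- LPS. Its groups overlapped and it was called in no comparison (-0.02, adjusted p 0.938, -0.07, adjusted p 0.757, 0.12, adjusted p 0.710 after LPS and 0.17, adjusted p 0.535 in mock between genotypes).

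The lists of other pathway genes are read against all genes tested, of which 30.2% were higher and 28.9% lower in WT and 28.5% and 26.0% in Adap-/-. Of 29 other ligases 12 were in the table, with 6 higher and 1 lower in WT (median 0.49) and 6 higher in Adap-/- (median 0.49). Among these Huwe1 was not called in WT (-0.24, adjusted p 0.179), but was called lower with upper-quartile scaling in WT (adjusted p 0.00578) and Adap-/- (adjusted p 0.00860). Of 20 other deubiquitinases 6 were in the table, with 2 higher and 1 lower in WT (median -0.16) and 1 higher and 2 lower in Adap-/- (median -0.13). All 18 proteasome genes listed from the table had peaks, and of 16 tested 7 were higher and 2 lower in WT (median 0.40) and 7 higher and 1 lower in Adap-/- (median 0.39). All genes tested had a median of -0.03 in both genotypes.

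What loss of ADAP changed after LPS was asked by comparing Adap-/- LPS with WT LPS. There 17 of 133 members were called (12.8%; 15.8% of all genes tested), 9 higher (6.77%; 6.03%) and 8 lower (6.02%; 9.78%). These shares were near or below the background and are not a result about the members as a group, and the medians were 0.02 for members and -0.01 for all genes. DESeq2 called 6 (4.51%; 10.6% of all genes). The count was 7 without Adap-/- LPS 1 (5.26%; 10.9%), 3 without Adap-/- LPS 2 (2.26%; 7.42%), 4 without WT LPS 1 (3.01%; 8.07%) and 7 without WT LPS 2 (5.26%; 10.7%). The calls of all genes dropped too, and most single calls depended on which libraries were included.

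Usp53 (ENSMUSG00000039701, chromosome 3, 122725142 to 122778159), a deubiquitinase of cell junctions, and Fbxo32 were the 2 members called whichever LPS library was left out. Usp53 read 16.9 and 14.0 CPM in WT mock, 24.5 and 27.5 in WT LPS, 21.8 and 24.0 in Adap-/- mock and 52.7 and 56.1 in Adap-/- LPS. The Adap-/- LPS libraries were above all others, at a log2 fold change of 1.07 (SE 0.17, adjusted p 5.71e-04) over WT LPS. Fbxo32 was at 60.3 and 48.1 CPM in WT LPS and 26.8 and 20.8 in Adap-/- LPS, without overlap, and the log2 fold change was -1.18 (SE 0.17, adjusted p 2.86e-04). Beside the members, Isg15 differed by -0.75 (SE 0.11, adjusted p 2.84e-04) and was also called in all 4 leave-outs.

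Other members higher in Adap-/- LPS were called with all libraries and lost their call when some were left out. Ubr2, described above, differed by 1.17 (SE 0.38, adjusted p 0.0473) and was not called without Adap-/- LPS 1, Adap-/- LPS 2, WT LPS 1 or WT LPS 2 (adjusted p 0.0652, 0.214, 0.184 and 0.149). Ube2o (ENSMUSG00000020802), an enzyme that acts as E2 and E3 at once, read 7.46 and 8.31 CPM in WT LPS and 14.1 and 18.2 in Adap-/- LPS (1.02, SE 0.29, adjusted p 0.0269) and was not called without Adap-/- LPS 2, WT LPS 1 or WT LPS 2 (adjusted p 0.172, 0.168 and 0.0811). In both genes the LPS libraries of the genotypes did not overlap. Trim41 (ENSMUSG00000040365), a TRIM ligase of nucleus and cytoplasm, read 18.3 and 15.9 CPM in WT LPS and 26.8 and 25.9 in Adap-/- LPS (0.62, adjusted p 0.0484), lost without Adap-/- LPS 1, Adap-/- LPS 2, WT LPS 1 or WT LPS 2 (adjusted p 0.165, 0.133, 0.114 and 0.199). Trim3 (ENSMUSG00000036989), a TRIM ligase reported to act on Toll-like receptor 3, read 31.4 and 30 CPM in WT LPS and 44.3 and 41.9 in Adap-/- LPS (0.49, adjusted p 0.0360), lost without Adap-/- LPS 1, Adap-/- LPS 2, WT LPS 1 or WT LPS 2 (adjusted p 0.158, 0.0974, 0.121 and 0.134). Cbl read 66.5 and 68.7 CPM in WT LPS and 95.0 and 103 in Adap-/- LPS (0.55, adjusted p 0.00929), lost without Adap-/- LPS 2 or WT LPS 1 (adjusted p 0.0787 and 0.0690). These 3 were again higher in both Adap-/- libraries than in both WT libraries. Marchf1 (0.45, adjusted p 0.0142) was lost without Adap-/- LPS 1, Adap-/- LPS 2 or WT LPS 1 (adjusted p 0.0511, 0.0857 and 0.103). Fbxl5 (ENSMUSG00000039753), the iron-sensing F-box protein that targets IRP2, read 194 and 206 CPM in WT LPS and 287 and 250 in Adap-/- LPS (0.43, adjusted p 0.0131) and was lost without Adap-/- LPS 1 or WT LPS 1 (adjusted p 0.131 and 0.117). Trim8, the last of the 9, was outside the rule for named genes and is named after its values were seen (101 and 107 CPM in WT LPS and 137 and 136 in Adap-/- LPS; 0.40, adjusted p 0.0251), not called without Adap-/- LPS 1, Adap-/- LPS 2, WT LPS 1 or WT LPS 2 (adjusted p 0.101, 0.0972, 0.165 and 0.0663). DESeq2 called none of Ubr2, Ube2o, Trim41, Trim3, Marchf1 and Trim8 (adjusted p 0.0963, 0.0730, 0.172, 0.170, 0.0763 and 0.0940 in this order). Ubr2 and Trim41 were also lost with a replicate block (adjusted p 0.0504 and 0.0610) and with only the libraries compared (adjusted p 0.0551 and 0.0521), and Trim41 with RLE scaling (adjusted p 0.0511).

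Lower in Adap-/- LPS, beside Fbxo32, were 7 members. Rnf135 was at 53.7 and 61.1 CPM in WT LPS and 37.2 and 29.9 in Adap-/- LPS (-0.76, SE 0.17, adjusted p 0.00558), and it was not called without Adap-/- LPS 2 or WT LPS 2 (adjusted p 0.0712 and 0.0562). Rnf19b was at 561 and 564 and 429.5 and 397 CPM (-0.44, SE 0.11, adjusted p 0.0121), not called without Adap-/- LPS 2, WT LPS 1 or WT LPS 2 (adjusted p 0.115, 0.0658 and 0.0605). In both, the genotypes did not overlap after LPS. Otud1 (ENSMUSG00000043415), a deubiquitinase of inflammatory signalling, read 45 and 35.8 CPM in WT LPS and 29.0 and 25.5 in Adap-/- LPS (-0.57, adjusted p 0.0372), lost without Adap-/- LPS 1, Adap-/- LPS 2 or WT LPS 1 (adjusted p 0.0730, 0.199 and 0.323). Ube2j2 (ENSMUSG00000023286), an E2 of the endoplasmic reticulum, read 131 and 132 CPM in WT LPS and 99.6 and 94.4 in Adap-/- LPS (-0.44, adjusted p 0.0136), lost without Adap-/- LPS 2, WT LPS 1 or WT LPS 2 (adjusted p 0.106, 0.0659 and 0.0603). Usp15 (-0.38, adjusted p 0.0271) was lost without Adap-/- LPS 1, Adap-/- LPS 2 or WT LPS 2 (adjusted p 0.0835, 0.154 and 0.154), and Usp12 (-0.37, adjusted p 0.0246) without Adap-/- LPS 1, Adap-/- LPS 2, WT LPS 1 or WT LPS 2 (adjusted p 0.139, 0.0802, 0.0995 and 0.0936). The E2 gene Ube2q1, named after its values were seen, read 260.3 and 297 CPM in WT LPS and 209 and 233 in Adap-/- LPS, with a change of -0.34 and an adjusted p just under the threshold, not called without Adap-/- LPS 1, Adap-/- LPS 2, WT LPS 1 or WT LPS 2 (adjusted p 0.276, 0.0852, 0.0619 and 0.304). DESeq2 called none of Otud1, Ube2j2, Usp15, Usp12 and Ube2q1 (adjusted p 0.131, 0.0531, 0.128, 0.0908 and 0.120 in this order). With only the libraries compared Otud1 (adjusted p 0.0573) and Ube2q1 (adjusted p 0.0509) were lost, and Ube2q1 also with upper-quartile scaling, no filter, 10 counts in every input library or a replicate block (adjusted p 0.0600, 0.0558, 0.0611 and 0.0595).

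The same question in unstimulated cells gave a share of members below that of all genes, a difference that was not tested and is not a result about the members. Between the mock groups 11 of 133 were called (8.27%; 17.4% of all genes tested), 9 higher in Adap-/- (6.77%; 8.71%) and 2 lower (1.5%; 8.65%). The medians were 0.01 for both members and all genes. DESeq2 called 7 (5.26%; 11.9% of all genes), and the count was 6 without Adap-/- mock 1 (4.51%; 11.1%), 3 without Adap-/- mock 2 (2.26%; 6.39%), 9 without WT mock 1 (6.77%; 18.3%) and 6 without WT mock 2 (4.51%; 9.07%). Rnf213, Marchf1 and Trim56 were called in every one of these.

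Rnf213 was at 438 and 405 CPM in WT mock and 745 and 734 in Adap-/- mock, Marchf1 at 37.8 and 33.9 and 57.5 and 67.9, and Trim56 at 62.1 and 65.2 and 95.0 and 107. Each was higher in both Adap-/- mock libraries. The log2 fold changes were 0.81 (SE 0.12, adjusted p 3.69e-04), 0.80 (SE 0.13, adjusted p 7.63e-04) and 0.66 (SE 0.13, adjusted p 0.00200). Trim30a was at 20.7 and 26.4 and 33.3 and 36.4 CPM (0.57, adjusted p 0.0135) and was not called without Adap-/- mock 2 or WT mock 1 (adjusted p 0.126 and 0.0983). Usp53 (0.57, adjusted p 0.0484) was lost without Adap-/- mock 1, Adap-/- mock 2 or WT mock 2 (adjusted p 0.0965, 0.251 and 0.263), and Peli1 (0.46, adjusted p 0.0146) without Adap-/- mock 1, Adap-/- mock 2, WT mock 1 or WT mock 2 (adjusted p 0.0860, 0.0724, 0.0512 and 0.0553). For these 3 genes too the mock libraries of the genotypes did not overlap. Fbxl5 read 110.2 and 110.4 CPM in WT mock and 139 and 159 in Adap-/- mock (0.43, adjusted p 0.0146), lost without Adap-/- mock 2 or WT mock 2 (adjusted p 0.179 and 0.0667). Cbl read 87.5 and 69.5 CPM in WT mock and 106 and 102 in Adap-/- mock (0.41, adjusted p 0.0322). This call was lost without Adap-/- mock 1, Adap-/- mock 2 or WT mock 2, where Cbl was at 0.38, 0.44 and 0.25. DESeq2 called neither Usp53 nor Cbl in mock (adjusted p 0.151 and 0.104). With only the libraries compared Usp53 and Trim30a were lost (adjusted p 0.0810 and 0.0519), and Usp53 with a replicate block (adjusted p 0.0625).

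The 2 members lower in Adap-/- mock were Rnf126 and Rnf34. Rnf126 (ENSMUSG00000035890), a ligase of protein quality control whose peak is shared with Fgf22, read 19.2 and 19.4 CPM in WT mock and 12.1 and 11.9 in Adap-/- mock (-0.69, SE 0.22, adjusted p 0.0438) and was not called without Adap-/- mock 1, Adap-/- mock 2, WT mock 1 or WT mock 2 (adjusted p 0.146, 0.198, 0.101 and 0.155). Rnf126 was also lost by DESeq2, with only the libraries compared and with a replicate block (adjusted p 0.147, 0.0570 and 0.0557). Rnf34 (ENSMUSG00000029474), a ligase that acts on caspases and MAVS, read 67.5 and 67.3 CPM in WT mock and 49.6 and 44.2 in Adap-/- mock (-0.53, SE 0.12, adjusted p 0.00595) and was not called without Adap-/- mock 2 (adjusted p 0.118). Both WT libraries were above both Adap-/- libraries in each gene. Among non-members, Birc3 was higher in Adap-/- mock by 0.72 (SE 0.10, adjusted p 2.53e-04), called in all 4 leave-outs. Tnfaip3 differed by 0.44 (adjusted p 0.0153), lost without Adap-/- mock 2 or WT mock 2 (adjusted p 0.172 and 0.0517). Huwe1, a large HECT ligase, read 73.7 and 57.1 CPM in WT mock, 57.5 and 53.1 in WT LPS, 85.8 and 103 in Adap-/- mock and 79.0 and 87.1 in Adap-/- LPS. It was higher in Adap-/- in mock (0.53, adjusted p 0.0147), lost without Adap-/- mock 2 or WT mock 2 (adjusted p 0.198 and 0.156), and after LPS (0.58, adjusted p 0.0138), lost without Adap-/- LPS 2, WT LPS 1 or WT LPS 2 (adjusted p 0.105, 0.0531 and 0.0825).

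**Figure D4:**
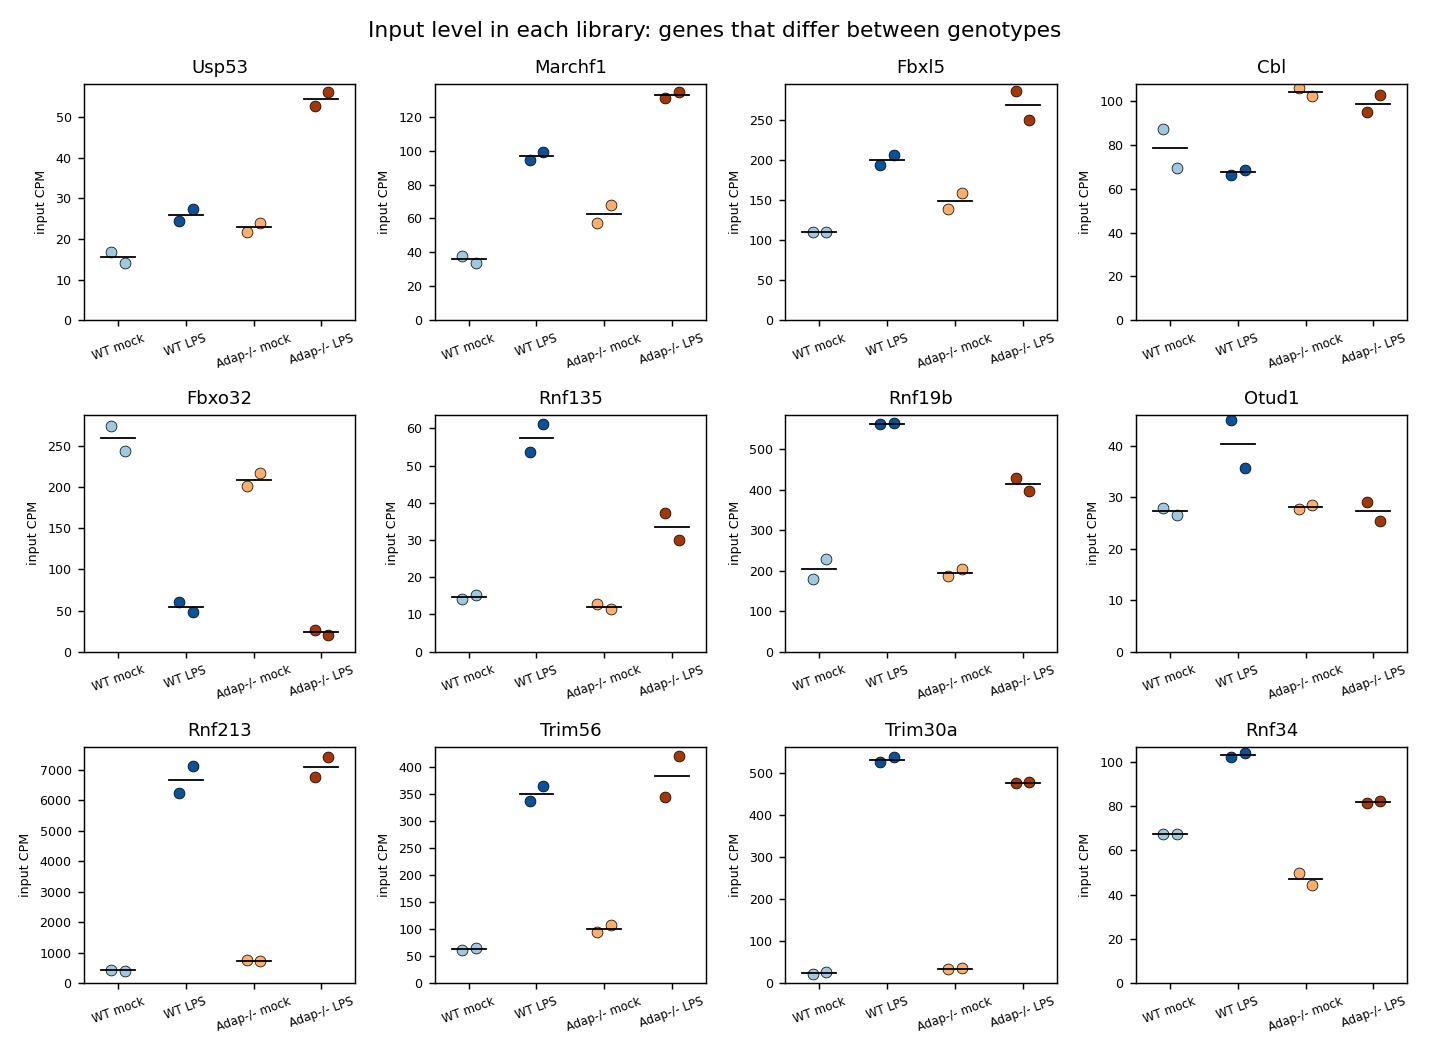
Input level of 12 members called between genotypes in each library (y axis, CPM, from 0) by group (x axis); points are the replicates and lines their means. Usp53 and Fbxo32 differ after LPS and Rnf213, Marchf1 and Trim56 in mock whichever library of the comparison is left out.

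Whether the LPS response itself differed between genotypes was tested as the Adap-/- response minus the WT response. It called 3 of 133 members (2.26%; 1.64% of all genes tested), 0 higher (0.358% of all genes) and 3 lower (1.29%), a share near the background. By edgeR's unadjusted p below 0.05 there were 5 higher and 13 lower (13.5% of members and 12.7% of all genes), and DESeq2 also called 0 higher and 3 lower (2.26%; 2.11% of all genes). The median difference was -0.03 for the members and -0.02 for all genes. The 3 were Fbxo32, Trim30a and Rnf213, at a difference of -0.87 (SE 0.21, adjusted p 0.0484), -0.73 (SE 0.17, adjusted p 0.0488) and -0.72 (SE 0.16, adjusted p 0.0346). Fbxo32 fell further in Adap-/- (-3.12 against -2.25), whereas Trim30a (3.77 against 4.49) and Rnf213 (3.26 against 3.99) rose less from higher mock levels. Fbxo32 was not called without Adap-/- LPS 1, Adap-/- LPS 2, Adap-/- mock 1, Adap-/- mock 2, WT LPS 1 or WT mock 2 (adjusted p 0.0585, 0.213, 0.0844, 0.213, 0.216 and 0.0918). Trim30a was not called without Adap-/- LPS 1, Adap-/- LPS 2, Adap-/- mock 1, Adap-/- mock 2, WT LPS 1, WT LPS 2 or WT mock 1 (adjusted p 0.128, 0.108, 0.0990, 0.284, 0.109, 0.131 and 0.162). Rnf213 was not called without Adap-/- LPS 1, Adap-/- LPS 2, Adap-/- mock 1, Adap-/- mock 2 or WT LPS 2 (adjusted p 0.162, 0.0810, 0.152, 0.199 and 0.146). Upper-quartile scaling and a filter of 10 counts in every input library lost Fbxo32 (adjusted p 0.0595 and 0.0552) and Trim30a (adjusted p 0.0558 and 0.0552). A replicate block lost Rnf213 (adjusted p 0.0588) and Trim30a (adjusted p 0.0547), and no filter lost Trim30a (adjusted p 0.0529). The count was 0 without any one of the Adap-/- libraries, 1 without WT LPS 1 or WT LPS 2, and 2 without WT mock 1 or WT mock 2. Over these 8 fits the share of all genes ranged from 0.602% to 2.63%.

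Isg15, not a member, had a difference of -0.91 (SE 0.17, adjusted p 0.0111) and was lost without Adap-/- LPS 1, Adap-/- mock 1 or Adap-/- mock 2 (adjusted p 0.0511, 0.0701 and 0.0652). Peli1 came next to the threshold without passing it (-0.61, adjusted p 0.0655). Among other ISG15 and NF-kB genes the differences were -0.19 (adjusted p 0.784) for Herc6, -0.38 (adjusted p 0.319) for Trim25, -0.42 (adjusted p 0.343) for Usp25 and -0.16 (adjusted p 0.747) for Tnfaip3. Of the 14 genes tested from the list for NF-kB ubiquitin editing 0 were called (1.64% of all genes), with a median difference of -0.13. Trim30c had a difference of -0.93 (SE 0.33, adjusted p 0.211) on small mock counts.

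For m6A, no member peak was called in any comparison by the main edgeR fit. In WT LPS against mock, 0 of 218 tested member peaks were called (0% of all 7058 peaks), with 23 at an unadjusted p below 0.05 (6 higher, 17 lower; 10.6% of member peaks and 10.8% of all) and 7 by DESeq2 (201 of all 7058). Adap-/- LPS against mock gave 0 (0% of all peaks), with 25 at unadjusted p below 0.05 (9 higher, 16 lower; 11.5% of member peaks and 11.5% of all) and 5 by DESeq2 (117 of all). Between genotypes after LPS there were 0 (0.0142% of all peaks, which is 1 peak), with 13 at unadjusted p (5 higher, 8 lower; 5.96% and 7.13%) and 1 by DESeq2 (29 of all). In mock there were 0 (0% of all peaks), with 6 at unadjusted p (2.75% and 2.1%) and 0 by DESeq2 (0 of all), and for the difference between responses 0 (0%), with 5 (2.29% and 3.23%) and 0 (7 of all). The unadjusted shares were near those of all peaks and are not a result about the members. DESeq2 called Rnf128 peak 1, Rnf213 peak 2, Trim30a peak 1 and the 4 Trim30c peaks in WT, Trim33 peak 1 and the 4 Trim30c peaks in Adap-/-, and Rnf128 peak 1 between genotypes after LPS, of which Trim30a peak 1 was chosen after its values were seen. The smallest adjusted p of a member peak was 0.215, 0.235, 0.379, 1 and 1 in the same order. Peaks varied more than gene inputs, with a biological coefficient of variation of 30.6% against 8.82%.

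Of the member peaks 204 had a mean input of at least 20 reads, and their median log2 ratio was -0.09, against -0.10 for 5858 other peaks. By position the member medians were 0.16 at stop codons (others -0.02), -0.20 in coding sequence (others -0.10), -0.29 in 3′ untranslated regions (others -0.14) and -0.04 at start codons (others -0.32). Without WT mock 1 and Adap-/- mock 2 the median was -0.11 (others -0.11), and by position 0.02 at stop codons (others -0.04), -0.12 in coding sequence (others -0.07), -0.45 in 3′ untranslated regions (others -0.16) and -0.46 at start codons (others -0.39).

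Among the high peaks was Trim56 peak 5 (chromosome 5, 137142173 to 137142522, coding sequence), counting peaks along the chromosome. Its log2 ratios were 1.67 and 1.15 in WT mock, 1.30 and 1.54 in WT LPS, 1.19 and 1.55 in Adap-/- mock and 1.29 and 1.66 in Adap-/- LPS, with an SD of 0.21 over the 8 replicates, while the gene's input rose more than 3-fold in both genotypes. Herc2 peak 1 (chromosome 7, 55880749 to 55881198), at the stop codon of a HECT ligase of the DNA damage response, had 1.44 and 2.28 in WT mock, 2.23 and 2.29 in WT LPS, 2.39 and 1.52 in Adap-/- mock and 2.27 and 2.5 in Adap-/- LPS, a mean of 2.12 (SD 0.40), which was 2.33 (SD 0.10) without WT mock 1 and Adap-/- mock 2. Neither changed with treatment or genotype beyond its replicates. Fbxo46 peak 4 (chromosome 7, 18870887 to 18871436, stop codon) had 0.89 and 1.06 in WT mock, 1.33 and 1.11 in WT LPS, 1.22 and 1.92 in Adap-/- mock and 2.40 and 2.32 in Adap-/- LPS. It was higher in both Adap-/- LPS replicates than in all others, but the change against WT LPS was not called (1.16, SE 0.30, adjusted p 0.379). Ube2o peak 1 (stop codon) averaged 1.66 (SD 0.55) and Rnf169 peak 1 (stop codon of a DNA repair ligase) 1.53 (SD 0.47), and 1.76 and 1.67 without those 2 replicates. Rnf225 peak 1, also at a stop codon, averaged 2.14 (SD 1.93), and 1.24 (SD 0.92) without them, from 5.97 and 0.46 in WT mock, 0.92 and 0.85 in WT LPS, 3.07 and 3.67 in Adap-/- mock and 1.09 and 1.09 in Adap-/- LPS. Its LPS replicates were close together, and its mock ratios were scattered on mock inputs of 2 and 3 reads in WT and 2 and 9 in Adap-/-.

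At the low end, Otud5 peak 1 (chromosome X, 7740564 to 7740688, stop codon of a deubiquitinase) was steady at -1.08 and -1.58 in WT mock, -0.98 and -1.25 in WT LPS, -1.36 and -1.22 in Adap-/- mock and -1.31 and -1.61 in Adap-/- LPS, with an SD of 0.22 over the 8 replicates. Rnf149 peak 1, at the start codon of a membrane ligase, averaged -1.21 (SD 0.52), and -1.36 without WT mock 1 and Adap-/- mock 2. Rnf128 peak 1 (chromosome X, 138511651 to 138511975, start codon) averaged -2.90 (SD 1.77), and -2.76 (SD 1.99) without those 2 replicates, from -2.44 and -3.91 in WT mock, -0.09 and -0.69 in WT LPS, -4.99 and -4.22 in Adap-/- mock and -4.18 and -2.71 in Adap-/- LPS. The WT LPS replicates were above all others. The change in WT was 2.75 (SE 0.71, adjusted p 0.215), called by DESeq2 (adjusted p 0.00907), and 3.54 (adjusted p 0.0984) without WT mock 1 and Adap-/- mock 2. Adap-/- LPS differed from WT LPS by -3.03 (SE 0.72, adjusted p 0.379), which DESeq2 called (adjusted p 0.00995).

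Rnf213 peak 2 (chromosome 11, 119325648 to 119325829, coding sequence) had 1.48 and -0.58 in WT mock, -2.68 and -3.51 in WT LPS, -2.85 and -0.30 in Adap-/- mock and -3.14 and -3.34 in Adap-/- LPS. WT mock 1 was the highest, and the LPS replicates of both genotypes lay low and close together, as did Adap-/- mock 1. Its WT change was -3.94 (SE 1.00, adjusted p 0.215), called by DESeq2 (adjusted p 0.00139), and -2.55 without WT mock 1 and Adap-/- mock 2, which was called (adjusted p 0.0276). Rnf213 peak 10 (chromosome 11, 119377157 to 119377431, stop codon, shared with another gene), chosen after its values were seen, was positive throughout at 1.75 and 0.91 in WT mock, 0.48 and 0.65 in WT LPS, 0.94 and 1.29 in Adap-/- mock and 0.63 and 0.46 in Adap-/- LPS. The 11 peaks of this gene thus ranged from a mean of -1.86 at peak 2 to 0.89 at peak 10 (-2.68 and 0.68 without those libraries). Herc6 peak 2 (chromosome 6, 57560213 to 57560287) and Herc6 peak 3 (chromosome 6, 57576965 to 57577039), in coding sequence, averaged -2.09 (SD 3.00) and -2.01 (SD 2.68), and -3.52 (SD 1.66) and -3.33 (SD 1.30) without WT mock 1 and Adap-/- mock 2. Herc6 peak 3 had 2.04 and -2.84 in WT mock, -3.33 and -4.58 in WT LPS, -1.24 and 1.84 in Adap-/- mock and -4.84 and -3.14 in Adap-/- LPS. The mock replicates that stood apart, WT 1 and Adap-/- 2, were the 2 positive values.

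Trim30c carried 4 peaks, and fitted falls of the ratio were large on all of them. Peak 1 (chromosome 7, 104031272 to 104031396, stop codon) had mock inputs of 2 and 0 reads in WT and 0 and 2 in Adap-/- beside mock IP counts of 187 and 9 and 58 and 151, so no ratio is given. After LPS its inputs were 453 and 341 in WT and 465 and 386 in Adap-/-, and its IP counts 64 and 35 and 52 and 80. Input reads thus appeared with LPS without a like gain in the IP. With a replicate block edgeR called peak 1 lower in both genotypes, and so it did with the WT mock numbers crossed, an alternative chosen after the data were seen. Peak 4 (chromosome 7, 104036640 to 104039726, start codon) had 6.39 and 0.88 in WT mock, -1.66 and -1.87 in WT LPS, 1.69 and 4.47 in Adap-/- mock and -1.94 and -1.76 in Adap-/- LPS. The LPS replicates lay close together, and the mock replicates spread over more than 5 log2 units in WT. Its change was -6.98 (SE 1.87, adjusted p 0.231) in WT and -5.64 (SE 1.70, adjusted p 0.286) in Adap-/-, both called by DESeq2 (adjusted p 0.00296 and 0.0375). Without WT mock 1 and Adap-/- mock 2 it was -2.76 (adjusted p 0.110) in WT and -3.63 (adjusted p 0.00936) in Adap-/-. Peak 3 (coding sequence) fell by 7.40 in Adap-/- (adjusted p 0.281), and by 4.13 without those libraries (adjusted p 0.135). Peak 2, chosen after its values were seen, fell by 6.26 in Adap-/- (adjusted p 0.297), and by 3.82 without them (adjusted p 0.0108). Leaving out WT mock 2, so that WT mock 1 alone stood for its group, took the count of member peaks called in WT from 0 to 3 (1.38%; 1.06% of all peaks), a share near the background. The 3 were Trim30c peak 4, Rnf225 peak 4 and, chosen after its values were seen, Trim21 peak 2.

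**Figure D5:**
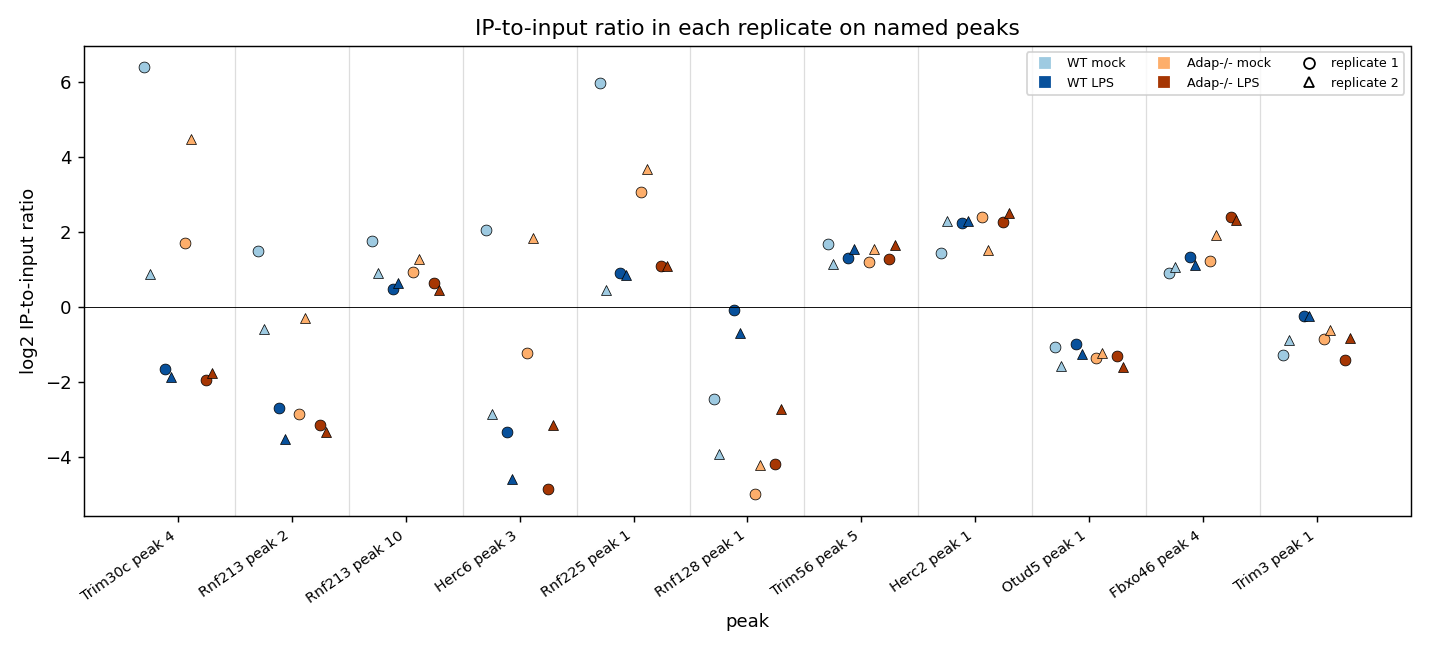
Log2 IP-to-input ratio (y axis) of 11 member peaks (x axis) in each replicate, with groups by colour and replicates by symbol. The mock replicates of peaks on Trim30c, Herc6 and Rnf213 spread widely, while Trim56 peak 5 and Otud5 peak 1 have an SD of 0.21 and 0.22 over all 8.

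Other peaks among those with the smallest unadjusted p had smaller fitted changes. Trim33 peak 1 (chromosome 3, 103262330 to 103262504, 3′ untranslated region of a transcriptional cofactor) had -0.14 and 0.48 in WT mock, -0.21 and -0.04 in WT LPS, 0.29 and 0.16 in Adap-/- mock and -1.37 and -0.79 in Adap-/- LPS. The Adap-/- LPS replicates were the lowest, and the change in Adap-/- was -1.33 (SE 0.33, adjusted p 0.235), called by DESeq2 (adjusted p 0.0262), and -1.44 (adjusted p 0.189) without WT mock 1 and Adap-/- mock 2. Marchf8 peak 1 (chromosome 6, 116383091 to 116383265, stop codon of a membrane ligase) moved the other way in Adap-/-, from -0.70 and -0.69 to 0.02 and 0.64 (1.00, SE 0.30, adjusted p 0.285), and 0.96 (adjusted p 0.364) without the same libraries. Trim3 peak 1 (chromosome 7, 105260110 to 105260309, stop codon) had -1.27 and -0.88 in WT mock, -0.23 and -0.23 in WT LPS, -0.87 and -0.63 in Adap-/- mock and -1.41 and -0.83 in Adap-/- LPS. Both WT LPS replicates were above both WT mock replicates, while the Adap-/- mock and LPS replicates overlapped. The change in WT was not called. Neither the genotype comparison after LPS (-0.88, SE 0.26, adjusted p 0.525) nor the difference between responses (-1.21, SE 0.36, adjusted p 1) was called. Ubr4 peak 1, the peak shared with Emc1, went from 0.38 and 0.51 in WT LPS to -1.09 and -0.61 in Adap-/- LPS (-1.38, SE 0.36, adjusted p 0.405).

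The smallest unadjusted p for the difference between responses fell, after Trim3, on Fbxo45 peak 1 (-1.07, SE 0.45, adjusted p 1), Trim36 peak 1 (-0.88, SE 0.38, adjusted p 1) and Klhl24 peak 1 (-1.41, SE 0.63, adjusted p 1). Without WT mock 1 and Adap-/- mock 2 these were -0.96, -0.43 and -0.94, and Trim3 peak 1 was at -0.89. In mock the peaks were Trim36 peak 1, Trim56 peaks 3 and 4 and Rnf34 peak 1. Their changes between genotypes were 0.78 (SE 0.28, adjusted p 1), -1.76 (SE 0.66, adjusted p 1), 1.66 (SE 0.66, adjusted p 1) and 0.47 (SE 0.18, adjusted p 1). Without those libraries they were 0.35, -0.56, 1.27 and 0.46. Rnf34 peak 1 kept its size, from ratios of -1.08 and -1.14 in WT mock and -0.69 and -0.58 in Adap-/- mock.

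Input changes were also compared between the peaks of a gene. In 43 members, Trim30c and Rnf225 with their small mock counts among them, with at least 2 peaks of 20 or more mean input reads, the log2 input change after LPS differed between the peaks of a gene by a median of 0.27 in WT and 0.30 in Adap-/-, and all peaks of a gene had the same sign in WT in 35. The widest difference was 1.52 in WT, within Trim30c, and 1.63 in Adap-/-, within Usp42. The mean ratio over the 8 replicates differed between peaks of a gene by a median of 0.67, and by 2.09 within Trim56 and 2.75 within Rnf213.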

How the data were processed

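The counts of reads on merged peaks were used as deposited by the authors, with no scaling before deposition. The authors named Bowtie2 2.2.8, MACS2 2.1.2, DiffBind 2.8 and genome build GRCm39, without stating which step each served. Each count belongs to 1 of 8 IP or 8 input libraries, and IP and input of a replicate were matched by the group and number in the library names.

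Counts were fitted in R 4.3.3 with the quasi-likelihood test of edgeR 4.0.16, with TMM scaling, filterByExpr (minimum count 10, minimum total 15) and Benjamini-Hochberg adjustment over all genes or peaks tested. For genes, input counts were summed over the peaks of a GeneID. For peaks, the interaction of library kind and group was tested in 1 fit of all 16 libraries, and log2 ratios used a prior count of 2. Alternatives were DESeq2 1.42.0, other scalings, other filters on low counts, gene values from unshared peaks alone, a replicate block (for inputs too), a fit to only the libraries compared, a fold threshold of 1 on the log2 scale with an unadjusted p below 0.05, and leaving out each library or the mock pair that stood apart. They, the mock pair among them, were set with earlier results of these data known and before the data were examined here, except a replicate block with the WT mock numbers crossed, which was chosen after seeing the data.

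Named genes followed a rule. For each LPS comparison of input they were the 12 called members with the largest rise and the 12 with the largest fall, and 8 and 8 for the genotype and difference comparisons, where both replicates of one group were above both of the other (not asked of the difference). Always named were Uba7, Ube2l6, Herc6, Usp18, Isg15, Trim25, Peli1, Peli2, Rnf31, Otud7b, Cblb, Cbl, Nedd4, Nedd4l, Ube2n, Usp25, Rnf128, Rnf19b, Tnfaip3, Cyld, Rbck1, Traf6, Birc3, Cbll1, Uba1, Ube3a and Huwe1, and results of some other genes are not reported. Named peaks were the 6 highest and 6 lowest mean ratios at a mean input of at least 20 reads, every called peak, and the 4 smallest unadjusted p of each comparison. The members and lists were chosen with earlier results of these data known. Lists of NF-kB ubiquitin editing, the ISG15 system, other ligases, other deubiquitinases, proteasome genes and cell markers were counted beside the members. Promoters came from RefSeq on GRCm38.p6, matched by symbol.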

Additional observations from a re-analysis of the deposited data

Results flagged for a closer look

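The LPS response of 3 members differed between the genotypes by the test of the difference itself (edgeR). The Adap-/- response minus the WT response was -0.867 for Fbxo32 (adjusted p 0.0484), -0.728 for Trim30a (adjusted p 0.0488) and -0.725 for Rnf213 (adjusted p 0.0346) on the log2 scale. None of these 3 calls was kept in all 8 fits that left out 1 library each, and the libraries and adjusted p are given with the genes above. Other settings ended them too, upper-quartile scaling and a filter of 10 counts in every input library for Fbxo32 and Trim30a, a replicate block for Rnf213 and Trim30a, and no filter for Trim30a.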

How the results depend on the processing

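With LPS, 83 members were called in WT input and 72 in Adap-/- input. Every alternative kept these counts within 1.5 times, except the threshold on fold change with an unadjusted p. That threshold gave 43 and 42 of 133 members (1589 and 1398 of all 4742 genes), shares near the background. Leaving out 1 library lowered the counts of members and of all genes alike. Between genotypes after LPS, 17 became 6 by DESeq2 (505 of all 4742 genes) and 4 with that threshold (156 of 4742). In mock, 11 became 7 by DESeq2 (565 of all 4742 genes) and 0 with the threshold (158 of 4742). With only the libraries compared it was 7 (737 of 4622), and without 1 library it was 3 to 9. For the difference between responses, 3 became 1 with the threshold (118 of all 4742 genes) and with upper-quartile scaling (73 of 4742). It was also 1 with 10 counts in every input library (74 of 4130) and with the replicate block (79 of 4742). The counts of these comparisons without 1 library are given above with their shares of all genes.

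For the IP-to-input ratio, edgeR called 0 member peaks in each comparison. With LPS in WT it was 7 of 218 member peaks by DESeq2 (201 of all 7058 peaks) and 17 with the threshold (552 of 7058). It was 1 with the replicate block (7 of 7058) and 1 with the WT mock numbers crossed (28 of 7058), both Trim30c peak 1. The crossed numbers were an alternative chosen after seeing the data. With LPS in Adap-/- it was 5 by DESeq2 (117 of 7058) and 17 with the threshold (494 of 7058). The replicate block gave 1 (6 of 7058) and the WT mock numbers crossed gave 1 (31 of 7058), again Trim30c peak 1. Leaving out WT mock 1 and Adap-/- mock 2 gave 2, from 1 replicate in each mock group. The calls of all peaks rose in that fit too. Leaving out 1 library gave 0. Between genotypes after LPS it was 1 by DESeq2 (29 of 7058) and 8 with the threshold (292 of 7058). With the threshold it was 3 in mock (90 of 7058) and 4 for the difference (195 of 7058). The member shares with the threshold were near those of all peaks and are not a result about the members. The cause was not tested.

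Of 231 named results 95 were called, and 61 of these were called in the same direction in each fit with another setting that gave a value (6 to 8 per result) and in each without 1 library, 34 were lost in at least 1, and none was reversed. The threshold on fold change was applied to the counts of members and not to named results. Leaving out 1 library left a group with 1 sample, which was taken to vary like the others.

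The matching of IP and input by number left little trace in the counts. The correlation across peaks between the replicate difference in IP and that in input was 0.0775 in Adap-/- LPS, 0.0242 in Adap-/- mock, 0.0908 in WT LPS and -0.0980 in WT mock, and peaks are not independent replicates. Input depth, 2121313 to 4325961 counted reads, limited the ratios of peaks with few input reads, such as those of Trim30c and Rnf225 in mock.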
